A study of Homo sapiens with 4 samples.

Results

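Long noncoding RNAs were followed in 5 genes, MALAT1, NEAT1, KCNQ1OT1, LINC00486 and LINC01572, of 37468 features counted in single-cell libraries of MSTO-211H, an established human pleural mesothelioma cell line. The 5 genes were taken by symbol, and each symbol matched 1 feature. They were chosen by measured values, their abundance in these libraries and how their raw counts ran with the depth and the mitochondrial share of cells, so levels and relations are given as a description, with no test. The label of abundance held for 3 of the 5: MALAT1, NEAT1 and LINC00486 passed 20 CPM in every library, while KCNQ1OT1 had 1.23 to 2.96 CPM and LINC01572 had 6.14 to 10.9 CPM. A UMI is a molecular tag that marks 1 captured RNA, and CPM is the usual counts-per-million scale, here a gene's summed UMIs over all nuclear-encoded UMIs of the library.

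The cells grew in suspension without serum, and the series text calls them mesothelioma-initiating. There were 4 libraries, 1 for each group, collected 48 h after the irradiation step: Drug_Radiation had 10 µM QTP and 4 Gy, Drug had 10 µM QTP alone, Radiation had 4 Gy alone, and Control had vehicle and no irradiation. The series title speaks of inhibiting dopamine receptors, and the labels do not spell out QTP. Cells were pooled before fixation. All 4 libraries came from 1 line labelled WT, so no difference between them had a replicate check, no p-value was computed, and the 95% intervals cover counting error only.

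Long noncoding RNAs are transcripts that are not translated and that often act in the nucleus. MALAT1 gathers in nuclear speckles, the bodies that store splicing factors, and NEAT1 is the RNA scaffold around which paraspeckles form and a target of p53. KCNQ1OT1 is transcribed from the paternal copy of an imprinted region, antisense to the potassium channel gene KCNQ1, and keeps neighbouring genes of that copy silent.

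In GENCODE 29, on GRCh38, MALAT1 lies at chr11:65497688-65506516 and NEAT1 at chr11:65422774-65445540, both on the plus strand. KCNQ1OT1 lies at chr11:2608328-2699994 on the minus strand, and it overlaps the protein-coding gene KCNQ1 on the other strand. The strand used in counting is not given in the sources used here, so UMIs of KCNQ1OT1 and KCNQ1 may be mixed. LINC00486 lies at chr2:32825359-32926693 on the plus strand and overlapped no other gene of GENCODE 29. LINC01572 lies at chr16:72283301-72665009 on the minus strand. Of the 5, only KCNQ1OT1 overlapped a gene whose GENCODE name is also a symbol in the files. MALAT1, NEAT1 and LINC01572 overlap other GENCODE genes, and genes that the files list by identifier alone were not matched.

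The longest run of A in an annotated transcript is shown for MALAT1, KCNQ1OT1, LINC00486 and LINC01572, in capitals with 30 bases on either side, 5′ to 3′. Single-cell kits of the 3-prime kind copy from the poly(A) tail, and they can also start at a long run of A inside a transcript. Where the copies of these RNAs began was not measured here. The bases are at chr11:65506068-65506140 for MALAT1-202, chr11:2610687-2610775 for KCNQ1OT1-201, chr2:32926340-32926404 for LINC00486-201 and chr16:72426109-72426175 for LINC01572-201. All are exonic.
MALAT1-202: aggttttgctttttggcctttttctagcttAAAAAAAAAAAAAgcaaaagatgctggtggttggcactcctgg
KCNQ1OT1-201: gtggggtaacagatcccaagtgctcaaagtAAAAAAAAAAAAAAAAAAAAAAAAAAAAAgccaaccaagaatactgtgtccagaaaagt
LINC00486-201: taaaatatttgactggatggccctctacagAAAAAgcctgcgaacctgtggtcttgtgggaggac
LINC01572-201: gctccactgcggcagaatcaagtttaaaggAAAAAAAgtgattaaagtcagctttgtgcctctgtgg
The run was 13 bases in MALAT1-202, a transcript of 8708 bases, and it began 95.7% along it. This is the encoded A-rich tract near the mature 3-prime end of MALAT1, an RNA that is known to end without a conventional poly(A) tail. The run was 29 bases in KCNQ1OT1-201 (91667 bases). It was 5 bases in LINC00486-201 (1794 bases over 5 exons) and 7 bases in LINC01572-201 (2194 bases over 3 exons). Among GENCODE transcripts of 0.8 to 1.25 times the same length, a run at least as long was held by 27.0% of 2837 for MALAT1, 12.5% of 8 for KCNQ1OT1, 80.6% of 25774 for LINC00486 and 33.8% of 25988 for LINC01572, each count including the transcript itself.

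NEAT1 is made in a long form that builds paraspeckles and in a short form with a poly(A) tail. The last 60 bases of an annotated transcript of each form are shown to set the ends side by side, with the hexamer AATAAA, the commonest poly(A) signal, in capitals where it occurs. They lie at chr11:65445481-65445540 for NEAT1-202, the long form, and at chr11:65426454-65426513 for NEAT1-208, a short one.
NEAT1-202 end: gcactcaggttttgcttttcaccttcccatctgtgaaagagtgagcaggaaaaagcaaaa
NEAT1-208 end: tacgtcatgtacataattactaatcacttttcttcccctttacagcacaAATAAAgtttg
Read on the transcript's strand alone, AATAAA stood in the last 60 bases of 1 of 8 annotated NEAT1 transcripts, 6 of 17 of MALAT1, 1 of 6 of LINC01572, 0 of 4 of LINC00486 and 0 of 1 of KCNQ1OT1. It stood there in 25.2% of the 206435 GENCODE transcripts of at least that length. The counts are per gene, so reads of the NEAT1 forms were not told apart.

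Cells numbered 6990 in Drug_Radiation, 3802 in Drug, 2425 in Radiation and 3183 in Control, with median totals of 18024.5, 20405, 5299 and 2318 UMIs per cell in that order. The median mitochondrial share was 5.17% in Drug_Radiation, 4.01% in Drug, 3.53% in Radiation and 3.18% in Control. With this design neither an effect of QTP nor an effect of radiation can be told apart from cell depth or a batch. No cell barcode was shared between libraries. The summed level of 9 mesothelial markers ran from 46.6 to 76.1 CPM, led by CALB2, while KRT19, UPK3B, ITLN1, PDPN and HP were each below 1 CPM. Vimentin (VIM) and the keratins KRT8 and KRT18 each had at least 1786 CPM in every library, and the summed leukocyte, endothelial and erythroid markers reached at most 0.745, 1.10 and 2.90 CPM. CDKN1A, the p53 target p21, was read as a check of the radiation labels: it had 478 CPM in Drug_Radiation and 359 in Drug, and 393 in Radiation and 172 in Control. CDKN1A was also higher in Drug than in Control, so its level alone does not tell radiation from QTP. MDM2, another p53 target, had 108 CPM in Drug_Radiation, 73.6 in Drug, 88.9 in Radiation and 58.9 in Control.

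LINC00486 was the member whose level differed most between libraries, and its raw count per cell differed least. No role is given for it here. Its level was 748 CPM in Drug_Radiation (743 to 752), 834 in Drug (827 to 840), 3473 in Radiation (3442 to 3503) and 9140 in Control (9078 to 9203). Levels of the QTP libraries were close to each other and far below those without QTP, and Radiation lay between them and Control. Raw UMIs per cell averaged 15.1 in Drug_Radiation, 19.1 in Drug, 20.5 in Radiation and 25.7 in Control, with medians of 13, 17, 19 and 22. Cells of Control therefore held the most LINC00486 UMIs while holding the fewest UMIs in all. At least 99.96% of the cells of every library had a LINC00486 UMI.

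The evenness of its raw mean was uncommon. The highest of the 4 library means was 1.70 times the lowest for LINC00486, against a median of 9.21 times over the 642 genes with a mean of at least 0.5 UMI per cell in every library. Genes with a smaller ratio numbered 5, led by XPO5 at 1.17, PLPP3 at 1.34 and RBM6 at 1.59. Of 652 genes with at least 0.5 UMI per cell in Control, 17 had a lower raw mean in both Drug_Radiation and Drug than in Control, and LINC00486 and the globin gene NGB were among them. These counts and names were chosen after the values were seen.

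LINC00486 took up a large part of the noncoding RNA without QTP. It made up 2.97% of all UMIs of the 14510 GENCODE long noncoding features in Drug_Radiation, 3.25% in Drug, 11.7% in Radiation and 24.1% in Control. It was the first long noncoding RNA by level in Radiation and in Control and the fifth gene of all kinds in Control, while it ranked 7 among them in Drug_Radiation and 6 in Drug. All long noncoding RNAs together were 2.52% of nuclear-encoded UMIs in Drug_Radiation, 2.57% in Drug, 2.97% in Radiation and 3.79% in Control. Without LINC00486 these shares were 2.44%, 2.48%, 2.62% and 2.88% in the same order.

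**Figure D1:**
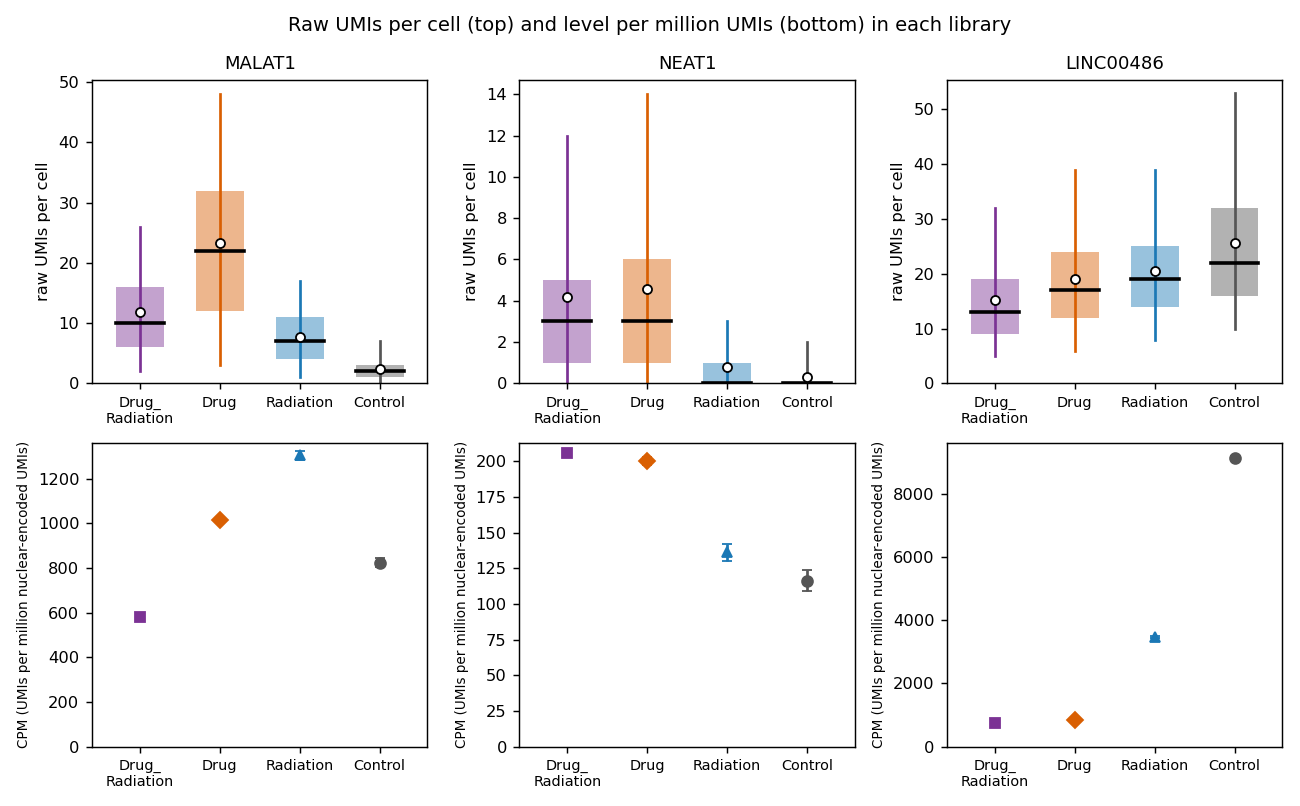
Raw UMIs per cell (top; black line the median, box the middle 50% of cells, thin line the 5th to 95th percentile, open circle the mean) and CPM with 95% Poisson intervals (bottom) for MALAT1, NEAT1 and LINC00486 in the 4 libraries. Mean raw LINC00486 ran from 15.1 to 25.7 UMIs per cell while its CPM ran from 748 to 9140.

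MALAT1, the speckle RNA, had its lowest raw counts in Control. It averaged 11.8 UMIs per cell in Drug_Radiation, 23.3 in Drug, 7.70 in Radiation and 2.32 in Control, with medians of 10, 22, 7 and 2. Its level was 581 CPM in Drug_Radiation (577 to 585), 1015 in Drug (1008 to 1021), 1304 in Radiation (1285 to 1322) and 824 in Control (805 to 843). By level Radiation was the highest and Drug_Radiation the lowest, and no pair of intervals overlapped.

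NEAT1, the paraspeckle scaffold, had 206 CPM in Drug_Radiation (203 to 208), 200 in Drug (197 to 203), 136 in Radiation (130 to 142) and 116 in Control (109 to 124). Levels of both QTP libraries lay above those of the other libraries. The intervals of Radiation and Control did not overlap, and neither did those of Drug_Radiation and Drug, which met near 203 CPM. Raw counts averaged 4.16, 4.59, 0.804 and 0.327 UMIs per cell in Drug_Radiation, Drug, Radiation and Control.

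The other 2 genes were sparse. KCNQ1OT1 gave 326 UMIs in Drug_Radiation, 258 in Drug, 31 in Radiation and 11 in Control. That is 2.30 CPM (2.06 to 2.57), 2.96 (2.61 to 3.34), 2.16 (1.47 to 3.07) and 1.23 (0.614 to 2.20) in the same order, with the interval of Drug clear of that of Control and of Drug_Radiation and the others overlapping at least in part. LINC01572, for which no role is given here, gave 1282, 949, 88 and 96 UMIs, or 9.05 CPM (8.56 to 9.56), 10.9 (10.2 to 11.6), 6.14 (4.92 to 7.56) and 10.7 (8.69 to 13.1). Radiation had the lowest level of LINC01572, and the interval of Control overlapped those of both QTP libraries.

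Libraries with and without 4 Gy were set side by side in 2 comparisons, Radiation against Control and, with QTP in both, Drug_Radiation against Drug. A ratio is the log2 of CPM plus 1 over CPM plus 1. A gene was counted as past 2-fold if it reached 20 CPM on either side. The interval of a ratio leaves out the added 1 CPM, so it is not centred for genes of low CPM. Of the 5 members, 3 passed this filter and 2, KCNQ1OT1 and LINC01572, did not.

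In Radiation against Control, 1 member, LINC00486, was past 2-fold, lower in Radiation, where 0.872% of 4818 genes were lower by that much 2.18% were higher, and 3.05% differed either way. Its level was 2.63 times lower in Radiation, a log2 ratio of -1.40 (-1.41 to -1.38), against a median of 0.18 over all genes. MALAT1 had a log2 ratio of 0.66 (0.62 to 0.70) and NEAT1 had 0.23 (0.12 to 0.34), which is 0.04 above the median. KCNQ1OT1 had 0.50 (-0.22 to 1.96) and LINC01572 had -0.72 (-1.24 to -0.37), and both signs turned in cells of 6500 to 15000 UMIs, to -0.07 and 0.02. The values in that range of depth rest on few UMIs. Of the genes past 2-fold, 105 were higher and 42 lower in Radiation, and with TMM scaling 73 were higher and 58 lower. In cells of 6500 to 15000 UMIs the balance turned, with 43 higher and 50 lower.

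In Drug_Radiation against Drug, 0 members were past 2-fold, where 0.395% of 5570 genes were. MALAT1 had a log2 ratio of -0.80 (-0.82 to -0.79), against a median of -0.18, and it ranked 19 from the lowest of all genes tested. NEAT1 had 0.04 (0.01 to 0.07) and LINC00486 had -0.16 (-0.17 to -0.14). The sign of NEAT1 turned to -0.29 in cells of 6500 to 15000 UMIs and to -0.10 in cells with under 5% mitochondrial UMIs. The sign of LINC00486 turned with TMM scaling, to 0.02. KCNQ1OT1 had -0.26 (-0.60 to -0.12) and LINC01572 had -0.24 (-0.39 to -0.14). Genes past 2-fold were 15 higher and 7 lower in Drug_Radiation, and with TMM scaling, which moved the median to 0.00, 26 were higher and 0 lower.

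MALAT1 thus ran in opposite directions after radiation, with a level above Control without QTP and below Drug with it. Its radiation log2 ratio with QTP minus that without was -1.46 (-1.51 to -1.42, counting error only). The same difference was -0.19 (-0.30 to -0.07) for NEAT1, 1.24 (1.22 to 1.26) for LINC00486, 0.47 (0.04 to 0.91) for LINC01572 and -0.77 (-1.79 to 0.25) for KCNQ1OT1. The ratios behind the last 2 did not hold their order or signs in cells of 6500 to 15000 UMIs. There LINC01572 had -0.69 in Drug_Radiation against Drug and 0.02 in Radiation against Control, and KCNQ1OT1 had -0.36 and -0.07. The values of Radiation against Control rest on few UMIs in those cells. With 1 library in each group none of these differences could be tested.

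**Figure D2:**
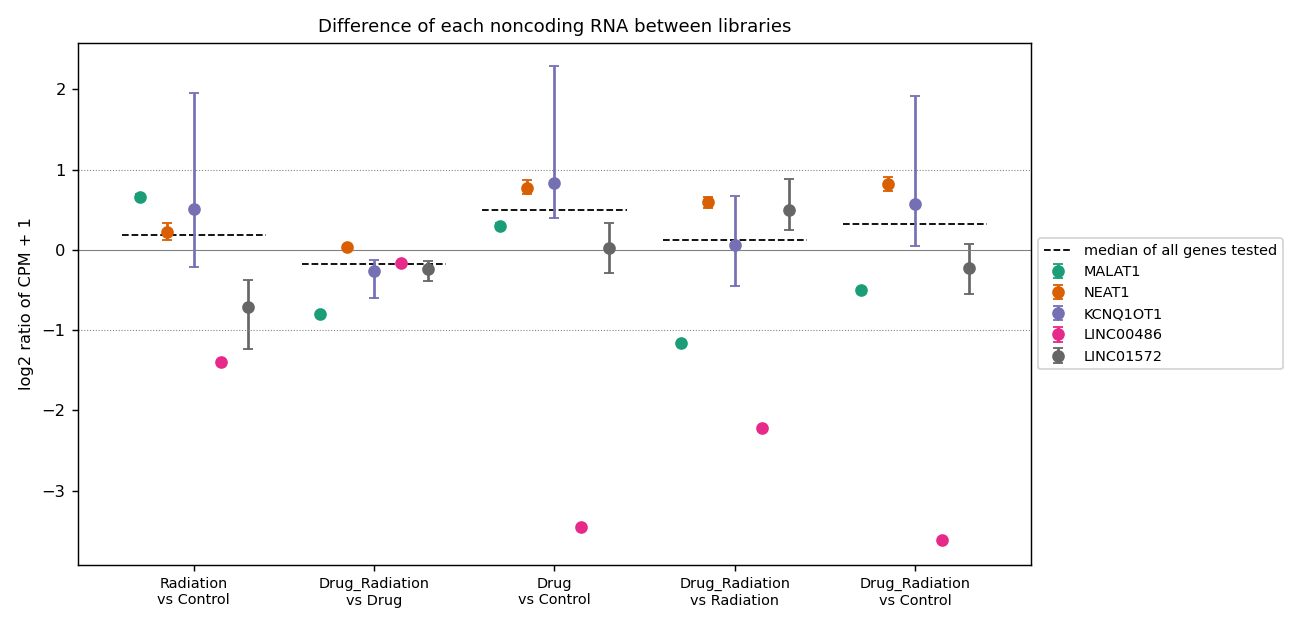
Log2 ratio of CPM plus 1 for each gene in the 5 comparisons (points, with 95% intervals for counting error), beside the median of all genes tested (dashed lines); dotted lines mark 2-fold. LINC00486 lies between -1.40 and -3.61 in 4 comparisons and at -0.16 in Drug_Radiation against Drug, and MALAT1 lies at 0.66 in Radiation against Control and at -0.80 in Drug_Radiation against Drug.

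The QTP comparisons set cells with 10 µM QTP against cells without it. In Drug against Control, 1 member, LINC00486, was past 2-fold, where 10.9% of 5546 genes were, 8.6% higher and 2.34% lower. Its level was 10.95 times lower in Drug, a log2 ratio of -3.45 (-3.47 to -3.44), the rank of 24 from the lowest. NEAT1 had 0.78 (0.69 to 0.87) and MALAT1 had 0.30 (0.27 to 0.34), against a median of 0.50. MALAT1 lay 0.20 below that median, and its sign turned to -0.10 with TMM and to -0.12 with median-of-ratios scaling. KCNQ1OT1 had 0.83 (0.40 to 2.29), and LINC01572 had 0.02 (-0.28 to 0.34), which turned to -0.35 with TMM scaling. The genes past 2-fold were 477 higher and 130 lower in Drug, and with TMM scaling, which moved the median to 0.10, 63 were higher and 179 lower.

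In Drug_Radiation against Radiation, 2 members, LINC00486 and MALAT1, were past 2-fold, both lower, where 1.6% of 5239 genes were lower by that much, 1.15% were higher and 2.75% differed either way. LINC00486 had a log2 ratio of -2.21 (-2.23 to -2.20) and MALAT1 had -1.16 (-1.19 to -1.14), while NEAT1 had 0.59 (0.53 to 0.66). KCNQ1OT1 had 0.06 (-0.44 to 0.67), which turned to -0.03 with TMM scaling, and LINC01572 had 0.49 (0.25 to 0.89). The median was 0.13. Genes past 2-fold were 60 higher and 84 lower in Drug_Radiation, and with TMM scaling, which moved the median to -0.01, 38 were higher and 93 lower. In cells of 6500 to 15000 UMIs the balance turned, with 140 higher and 88 lower.

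In Drug_Radiation against Control, 1 member, LINC00486, was past 2-fold, where 7.78% of 5243 genes were, 5.36% higher and 2.42% lower. Its level was 12.2 times lower in Drug_Radiation, a log2 ratio of -3.61 (-3.63 to -3.60), against a median of 0.33. NEAT1 had 0.82 (0.73 to 0.91) and MALAT1 had -0.50 (-0.54 to -0.47). KCNQ1OT1 had 0.57 (0.05 to 1.92) and LINC01572 had -0.22 (-0.54 to 0.07), which turned to 1.12 in cells of 6500 to 15000 UMIs. Genes past 2-fold were 281 higher and 127 lower in Drug_Radiation, and with TMM scaling, which moved the median to 0.10, 105 were higher and 154 lower. Drug and Drug_Radiation share Control as the library they are set against, so their ratios are given side by side only.

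Keeping to cells of 6500 to 15000 UMIs moved the calls for MALAT1, NEAT1 and LINC01572 but not for LINC00486. Depth was still unequal there, with medians of 11462 UMIs in Drug_Radiation, 10833 in Drug, 8566 in Radiation and 7775 in Control. In cells of 6500 to 15000 UMIs, of which there were 2533 in Drug_Radiation, 1023 in Drug, 770 in Radiation and 173 in Control, LINC00486 had log2 ratios of -1.20 in Radiation against Control, -3.00 in Drug against Control, -2.01 in Drug_Radiation against Radiation and -3.21 in Drug_Radiation against Control. In the same cells MALAT1 had 1.28 in Drug against Control and 0.37 in Drug_Radiation against Control, and in Drug_Radiation against Radiation it had -0.41, no longer past 2-fold. NEAT1 had 1.97 in Drug against Control, 1.44 in Drug_Radiation against Radiation and 1.68 in Drug_Radiation against Control, past 2-fold in each. LINC01572 had 1.81 in Drug against Control, where it had 0.02 in all cells. That value rests on few UMIs: Control gave 96 UMIs of LINC01572 in all its cells, and 2 in its 61 cells of 8000 to 16000 UMIs. The radiation ratios of MALAT1 were 0.79 in Radiation against Control and -0.91 in Drug_Radiation against Drug in these cells.

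Within a library, raw LINC00486 counts ran closely with the depth of a cell. The Spearman correlation across cells of raw UMIs and nuclear-encoded total was 0.87 in Drug_Radiation (6990 cells), 0.91 in Drug (3802), 0.84 in Radiation (2425) and 0.87 in Control (3183). The 20 genes nearest to it in mean level had median correlations of 0.83, 0.86, 0.85 and 0.81 in the same order. Cells of a library share its capture and sequencing, and a gene's UMIs are part of the total, so these are descriptions. With LINC00486 left out of the total the values were within 0.01 of these.

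MALAT1 and NEAT1 ran with depth far less closely than genes of like level. For MALAT1 the correlation was 0.45 in Drug_Radiation, 0.51 in Drug, 0.33 in Radiation and 0.43 in Control, where the 20 nearest genes had medians of 0.81, 0.85, 0.74 and 0.55. For NEAT1 it was 0.29, 0.32, 0.21 and 0.19, where the nearest genes had 0.70, 0.72, 0.40 and 0.32. Values for NEAT1 in Control lay inside the range of its 20 nearest genes (0.18 to 0.40), and in the other libraries they lay below that range. MALAT1 lay below the range of its nearest genes in Drug_Radiation (0.61 to 0.86), in Radiation (0.49 to 0.80) and, by little, in Control (0.44 to 0.67), but inside it in Drug (0.40 to 0.91).

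Slopes were read as well. Cells of each library were put into 10 groups of equal number by depth, and the log of the mean raw count was set against the log of the mean depth, where a slope of 1 means a count in proportion to depth. For LINC00486 the slope was 0.90 in Drug_Radiation, 0.88 in Drug, 0.79 in Radiation and 0.78 in Control. For MALAT1 it was 0.50, 0.51, 0.42 and 0.79, and for NEAT1 it was 0.34, 0.34, 0.43 and 0.70. In Drug the deepest 10% of cells held 7.58 times the UMIs of the shallowest 10%. They held 5.97 times as many LINC00486 UMIs (40.0 against 6.71 per cell), 2.44 times as many of MALAT1 (36.6 against 15.01) and 1.76 times as many of NEAT1 (8.04 against 4.57).

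**Figure D3:**
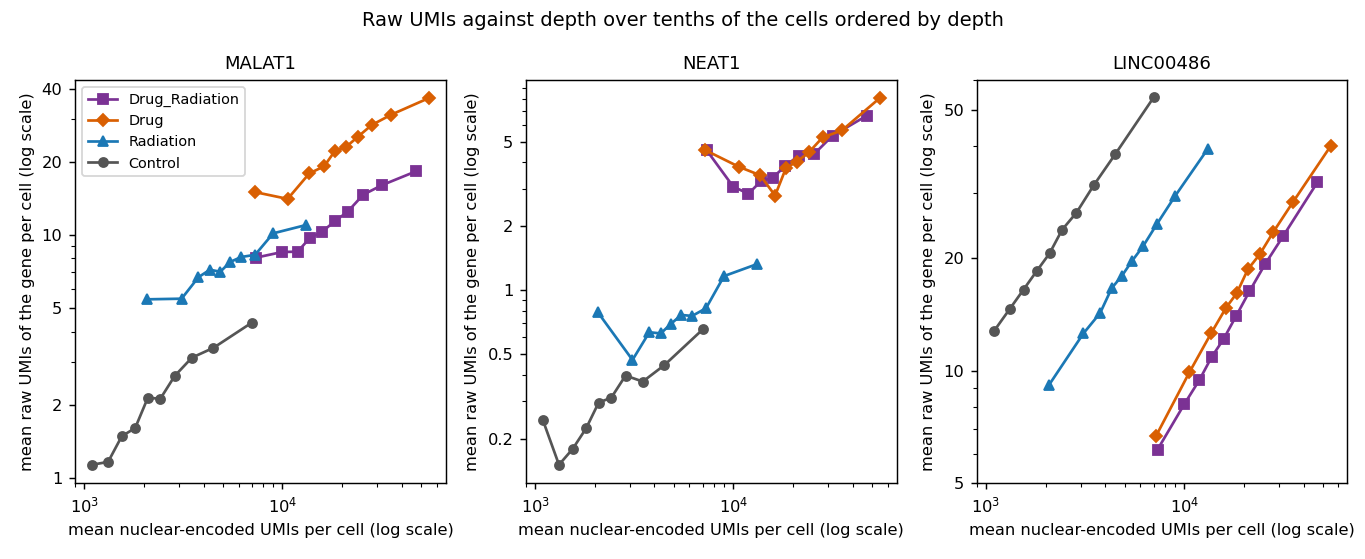
Mean raw UMIs per cell of MALAT1, NEAT1 and LINC00486 against mean nuclear-encoded UMIs per cell, both on log scales, for 10 groups of cells ordered by depth in each library. The LINC00486 lines run side by side with slopes of 0.78 to 0.90 and are set apart by library, while the NEAT1 lines are flatter in the QTP libraries (0.34).

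Within 1 range of depth the libraries stayed apart. In cells with 8000 to 16000 nuclear-encoded UMIs (2740, 985, 455 and 61 cells), LINC00486 averaged 9.67 UMIs per cell in Drug_Radiation, 11.4 in Drug, 33.0 in Radiation and 67.2 in Control. MALAT1 averaged 8.97, 15.9, 10.6 and 5.20 in these cells, and NEAT1 averaged 3.11, 3.55, 1.20 and 0.803. So LINC00486 was highest in Control here, MALAT1 was highest in Drug, and NEAT1 was higher in both QTP libraries than in the others. The median mitochondrial share of these cells was 5.49% in Drug_Radiation, 4.27% in Drug, 3.21% in Radiation and 2.58% in Control.

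The level of MALAT1 and NEAT1 ran with the mitochondrial share of a cell. CPM here leave mitochondrial UMIs out of the total, so a higher mitochondrial share does not by itself lower a CPM. In the 10% of cells with the highest share, against the 10% with the lowest, MALAT1 had 1234 and 395 CPM in Drug_Radiation, 2426 and 699 in Drug, 2573 and 859 in Radiation, and 1306 and 624 in Control. These are log2 ratios of 1.64, 1.79, 1.58 and 1.07. In the same order 16%, 13.6%, 7.96% and 11.5% of all genes tested were past 2-fold higher in the cells of high share, with all-gene medians of 0.42, 0.31, 0.24 and 0.30.

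NEAT1 stood near the top of all genes in this comparison. It had 674 CPM in the cells of high share and 138 in those of low share in Drug_Radiation, 709 and 159 in Drug, 342 and 107 in Radiation, and 240 and 82.3 in Control, log2 ratios of 2.28, 2.15, 1.67 and 1.53. From the highest it ranked 7 of 6648 genes in Drug_Radiation, 4 of 6928 in Drug, 53 of 5576 in Radiation and 137 of 5118 in Control. MALAT1 ranked 96, 41, 68 and 502. The cells of high share were also shallower, with median depths of 10538 against 23934 UMIs in Drug_Radiation and 9705 against 22231 in Drug, while the depths were 3624 against 4914 in Radiation and 2001.5 against 1952 in Control.

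LINC00486 changed little along the same axis. Its level in cells of high and low share was 813 and 704 CPM in Drug_Radiation, 933 and 778 in Drug, 3983 and 3356 in Radiation, and 10179 and 8813 in Control. The log2 ratios were 0.21, 0.26, 0.25 and 0.21, all below the all-gene medians except in Radiation, where the median was 0.24. Sparse LINC01572 had log2 ratios of 2.06 (227 and 118 UMIs) in Drug_Radiation and 1.93 (171 and 97 UMIs) in Drug. In Radiation it had 11 and 5 UMIs and in Control 16 and 5, log2 ratios of 1.53 (0.15 to 3.67) and 1.77 (0.42 to 3.74). KCNQ1OT1 had 50 and 52 UMIs in Drug_Radiation and 40 and 28 in Drug, log2 ratios of 0.98 (0.65 to 1.82) and 1.43 (1.01 to 2.49).

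**Figure D4:**
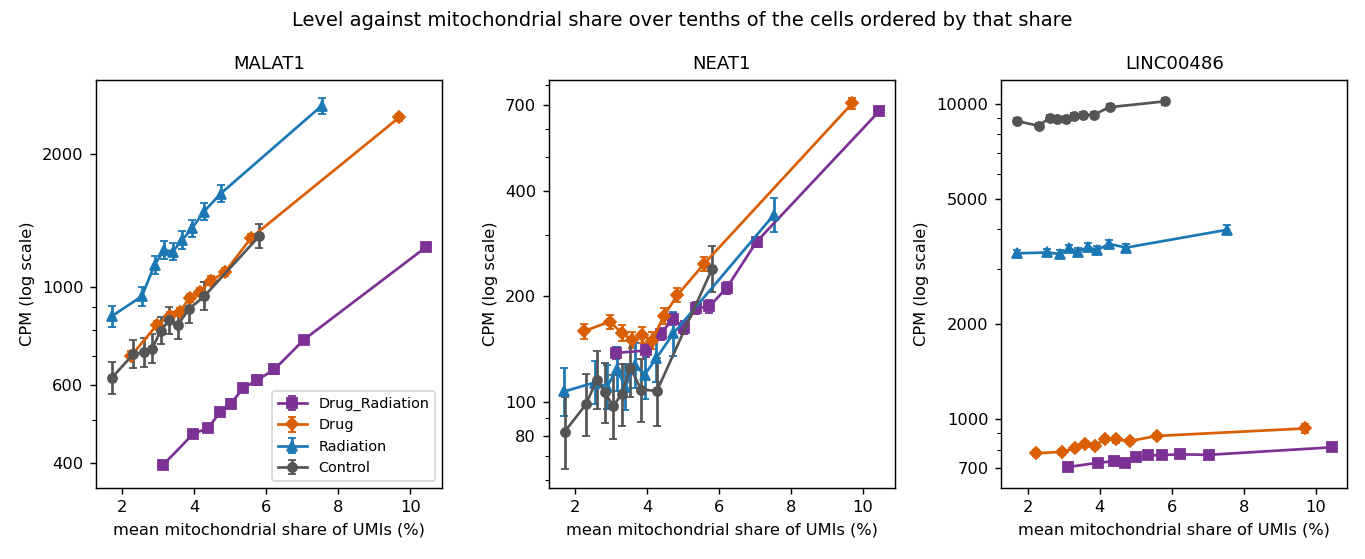
CPM (log scale, 95% Poisson intervals) of MALAT1, NEAT1 and LINC00486 against mean mitochondrial share, for 10 groups of cells ordered by that share in each library. In Drug the last group reaches 2426 CPM of MALAT1 and 709 CPM of NEAT1, against 699 and 159 CPM in the first, while LINC00486 has 933 and 778 CPM.

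The relation was also seen inside a narrow range of depth. Among cells of Drug with 8000 to 16000 UMIs, MALAT1 had 1029 CPM at a mitochondrial share of 2 to 4% (385 cells), 1226 CPM at 4 to 8% (485 cells) and 3398 CPM at 8 to 20% (85 cells). NEAT1 had 197, 236 and 1179 CPM in these cells. In Drug_Radiation at the same depth MALAT1 had 634, 694 and 1206 CPM, and NEAT1 had 185, 221 and 605 CPM, in 302, 2127 and 300 cells. So in these cells, for both genes, the step from the middle range to the highest was larger than the step before it. NEAT1 did not rise at every step elsewhere: in Drug at 4000 to 8000 UMIs it had 409, 317 and 1221 CPM in the same ranges. In Radiation at 4000 to 8000 UMIs it had 137, 120 and 151 CPM at 1 to 2%, 2 to 4% and 4 to 8%.

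With depth and mitochondrial share both held in 1 range, 8000 to 16000 UMIs and 2 to 4%, the libraries can be read side by side in 302 cells of Drug_Radiation, 385 of Drug, 365 of Radiation and 52 of Control. NEAT1 had 185 CPM (171 to 199) in Drug_Radiation, 197 (185 to 210) in Drug, 104 (94.1 to 115) in Radiation and 84.3 (60.7 to 114) in Control. MALAT1 had 634 (608 to 660), 1029 (1000.1 to 1058), 958 (927 to 989) and 562 (498 to 632). LINC00486 had 774 (746 to 803), 891 (864 to 918), 3140 (3084 to 3196) and 6913 (6684 to 7148). The order of the libraries for LINC00486 was the one seen in all cells, while MALAT1 was highest in Drug.

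The spread of LINC00486 among cells was smaller than that of MALAT1 and NEAT1 in Drug_Radiation, Drug and Radiation, and close to theirs in Control. With each cell thinned to 1000 nuclear-encoded UMIs, which left out 36 cells of Control, counts drawn at random from 1 shared level would give a variance equal to the mean. For LINC00486 the variance over the mean was 0.97 in Drug_Radiation, 1.001 in Drug, 1.07 in Radiation and 1.28 in Control. For MALAT1 it was 1.42, 1.77, 2.16 and 1.41, and for NEAT1 it was 1.89, 1.74, 1.74 and 1.35. The 20 genes nearest in mean had medians of 1.01 to 1.02 beside NEAT1, 1.06 to 1.10 beside MALAT1 and 1.04 to 1.38 beside LINC00486. MALAT1 lay above the range of its 20 genes in Drug_Radiation (at most 1.20) but inside it in Drug (at most 4.12), Radiation (2.32) and Control (1.72), while NEAT1 lay above its range in every library. The mean counts of the 3 RNAs differ, and a variance over a mean depends on the mean.

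The share of cells with a UMI at this depth was 18.5% in Drug_Radiation, 19.1% in Drug, 12.8% in Radiation and 10.2% in Control for NEAT1, against 88.1%, 86.9%, 45.1% and 22.2% before thinning. For MALAT1 it was 44.9%, 61.9%, 67.9% and 52.4%, against 98.7%, 99.6%, 95.9% and 77.0% before. For LINC00486 it was 54.7%, 58.1%, 97.4% and 100% (3147 of 3147 cells). At 1000 UMIs LINC01572 was seen in 0.70 to 1.5% of cells and KCNQ1OT1 in 0.095 to 0.39%. No cell type that should lack these RNAs was present in the line, so free RNA in the droplets was not measured here.

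A thinning to 5000 UMIs, chosen after these values were seen, kept all 6990 cells of Drug_Radiation and all 3802 of Drug but 1266 of Radiation and 361 of Control. There the variance over the mean of NEAT1 was 5.42 in Drug_Radiation, 4.47 in Drug, 1.45 in Radiation and 1.53 in Control. The median cell held 1, 1, 0 and 0 NEAT1 UMIs, and the highest held 53, 32, 9 and 6. MALAT1 had 2.87, 5.22, 2.65 and 1.76, with highest counts of 34, 80, 26 and 16. LINC00486 had 0.9998, 0.97, 1.19 and 1.73. The highest raw NEAT1 count was 163 UMIs in Drug_Radiation and 76 in Drug, against 17 in Radiation and 9 in Control, whose cells were shallower. Per 10000 nuclear-encoded UMIs of a cell, the highest NEAT1 level was 105 in Drug_Radiation, 64.4 in Drug, 123 in Radiation and 57.6 in Control, so on that scale the highest cell was one of Radiation.

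**Figure D5:**
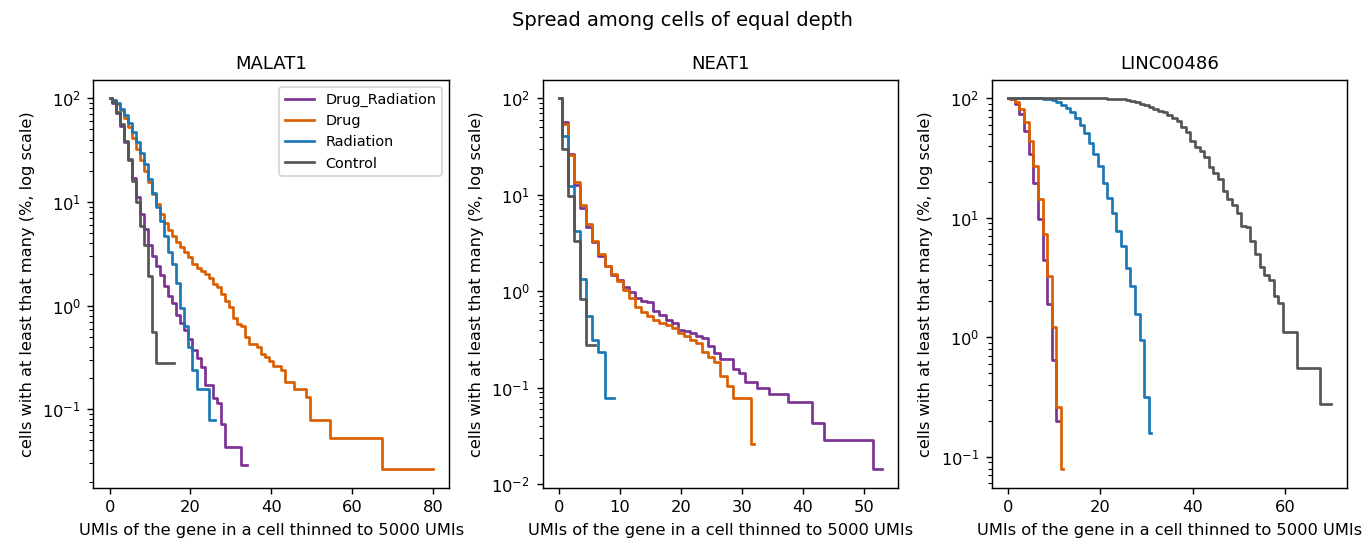
Share of cells (%, log scale) with at least a given number of UMIs of MALAT1, NEAT1 and LINC00486 after thinning every cell to 5000 nuclear-encoded UMIs, for 6990 cells of Drug_Radiation, 3802 of Drug, 1266 of Radiation and 361 of Control. NEAT1 reaches 53 UMIs in Drug_Radiation and 32 in Drug, against 9 in Radiation and 6 in Control, and the LINC00486 curves of the 4 libraries drop steeply around 4, 4, 17 and 39 UMIs.

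Across cells, MALAT1 and NEAT1 were each other's nearest gene among 1888 genes with at least 50 CPM in every library. Their mean Spearman correlation over the 4 libraries was 0.13 at 1000 UMIs, and at 5000 UMIs it was 0.28 in Drug_Radiation, 0.28 in Drug, 0.24 in Radiation and 0.23 in Control. Next to MALAT1 came PABPC1 (0.08), a poly(A) binding protein, PSAP (0.08) and SCG2 (0.08), and at the other end lay the ribosomal gene RPL41 (-0.10), the histone H2AZ1 (-0.10) and SNRPG (-0.09). Next to NEAT1 came the noncoding PVT1 (0.12), ASAP1 (0.11), ENSG00000280441 (0.11) and TRIO (0.11). These correlations are weak and rest on sparse counts.

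LINC00486 had no near neighbour across cells: its highest were RPS21 (0.05), KIAA0825 (0.05) and RPL37A (0.04). With MALAT1 it had 0.01 to 0.08 and with NEAT1 -0.02 to 0.04 at 1000 UMIs. NEAT1 came first for KCNQ1OT1 (0.04, before DLG1 and HNRNPH1) and for LINC01572 (0.09, before PVT1 and SEMA3A). With cells thinned to 2000 UMIs, 0 of the 3 genes named for KCNQ1OT1 and 1 of the 3 for LINC01572 were named again. NEAT1 and the p53 target MDM2 had 0.20 in Drug_Radiation, 0.19 in Drug, 0.07 in Radiation and 0.03 in Control at 5000 UMIs, but 0.08, 0.06, 0.10 and 0.08 at 1000 UMIs. NEAT1 and CDKN1A had 0.04, 0.07, 0.06 and 0.01 at 5000 UMIs.

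Lists of related genes were read against the share of all genes past 2-fold in the same comparison: 3.05% in Radiation against Control, 0.395% in Drug_Radiation against Drug, 10.9% in Drug against Control, 2.75% in Drug_Radiation against Radiation and 7.78% in Drug_Radiation against Control. With lists this short, a count of 0 or 1 is near those shares and sets no list apart. Of 30 other long noncoding RNAs listed, 29 were in the files, 20 had at least 20 CPM, and 0 passed 2-fold in Radiation against Control, in Drug_Radiation against Drug or in Drug_Radiation against Radiation. MEG3, an imprinted RNA, was the 1 that passed in Drug against Control (log2 ratio 1.17) and in Drug_Radiation against Control (1.17). The most abundant, GAS5, had 1931 CPM in Drug_Radiation, 1630 in Drug, 2038 in Radiation and 1984 in Control. SNHG29 had 1311, 1378, 1607 and 1120 CPM, ZFAS1 had 1134, 1174, 1193 and 1395, and CYTOR had 842, 723, 603 and 457. Their median log2 ratio was 0.04 in Radiation against Control and -0.04 in Drug_Radiation against Drug, beside 0.18 and -0.18 for all genes.

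Of 10 long noncoding RNAs known to respond to p53, 8 were in the files and 4 had at least 20 CPM, and 0 of the 4 were past 2-fold in any comparison. Beside NEAT1 they were PVT1 with 1263, 1041, 1197 and 1489 CPM, TP53TG1 with 157, 143, 156 and 148 CPM, and PURPL with 33.0, 33.6, 29.9 and 25.03 CPM, in Drug_Radiation, Drug, Radiation and Control. PANDAR was listed at 0 in every library.

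Proteins that work with MALAT1 and NEAT1 were read in the same way. Of 27 paraspeckle proteins, 24 had at least 20 CPM in a compared library (23 in Drug_Radiation against Control), and the 1 past 2-fold was TAF15, at 154 CPM in Radiation and 70.9 in Control (log2 ratio 1.11). NONO, a core paraspeckle protein, had 305 CPM in Drug_Radiation, 309 in Drug, 296 in Radiation and 192 in Control. HNRNPA1 had 1342, 1539, 1803 and 1392 CPM, HNRNPK had 410, 481, 558 and 369, and RBMX had 222, 243, 183 and 191. The list's median log2 ratio was 0.37 in Radiation against Control and 0.60 in Drug against Control, beside 0.18 and 0.50 for all genes.

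Of 23 nuclear speckle proteins, 22 had at least 20 CPM, and the 1 past 2-fold was THRAP3, at 57.5 CPM in Drug and 26.6 in Control (1.08). The splicing factors SRSF3, SRSF7 and SRSF5 had 201, 182 and 156 CPM in Drug_Radiation, 254, 235 and 169 in Drug, 245, 222 and 187 in Radiation, and 222, 205 and 93.7 in Control. The list's median was -0.32 in Drug_Radiation against Drug and 0.24 in Radiation against Control, beside -0.18 and 0.18 for all genes. Of 8 genes for the processing and stability of MALAT1 and NEAT1, 5 to 7 had at least 20 CPM and 0 were past 2-fold in any comparison. ELAC2, the RNase Z that trims the tRNA-like end cut from MALAT1, had 33.4, 33.9, 33.2 and 26.5 CPM, and METTL3, the RNA methyltransferase, had 50.6, 54.5, 48.8 and 34.8 CPM.

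Genes next to the members on the chromosome were read as lists too. Of 14 neighbours of MALAT1 and NEAT1 in the files, 3 to 6 had at least 20 CPM in a comparison. CDC42EP2 was past 2-fold in Drug against Control (34.8 and 14.98 CPM, 1.16), and LTBP3, which binds latent TGF-beta, was past it in Drug_Radiation against Radiation (47.5 and 22.4 CPM, 1.05). Of 8 neighbours of LINC00486, 3 had at least 20 CPM and 0 were past 2-fold in any comparison: YIPF4 had 44.7 CPM in Drug_Radiation, 54.3 in Drug, 48.0 in Radiation and 52.3 in Control. BIRC6 had 29.8, 32.6, 18.6 and 24.1 CPM, and TTC27 had 23.6, 29.1, 29.3 and 22.1 CPM.

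Of 13 genes of the KCNQ1OT1 domain in the files, 4 had at least 20 CPM. CARS1 was past 2-fold in Drug against Control (54.4 and 23.1 CPM, 1.20), and CD81 was past it in Drug_Radiation against Radiation (80.7 and 38.5 CPM, 1.05). Among the imprinted genes of the domain, PHLDA2 and CDKN1C had 48.3 and 6.04 CPM in Drug_Radiation, 47.7 and 6.16 in Drug, 44.8 and 4.67 in Radiation, and 62.0 and 3.46 in Control. KCNQ1 itself had 1.17, 1.55, 2.02 and 1.68 CPM. Of 7 silencing partners named for KCNQ1OT1, 3 had at least 20 CPM and 0 were past 2-fold in any comparison. Of 8 neighbours of LINC01572, 4 had at least 20 CPM, and the 1 past 2-fold was the helicase gene DHX38 in Radiation against Control (49.7 and 23.1 CPM, 1.07). Outside the 4 most abundant genes of a list, those past 2-fold were named after their values were seen, as were CDKN1C, KCNQ1 and PANDAR.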

How the data were processed

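For each of 4 libraries the authors deposited whole-number UMI counts, not normalized, as a matrix of genes by cell barcodes. The build hg38 and the tool Seurat 4.3.3 appear in the submitters' processing notes without a stated use. Per the labels' protocols the kit was PIPseq V T2, but the description field names 10x Genomics, and which one made the libraries is unclear. For the aligner, the counting program, the annotation, the strand and the calling of barcodes, nothing is stated in the sources at hand.

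Cells with at least 500 UMIs, 300 genes and under 20% mitochondrial UMIs were kept: 6990 of 7006 barcodes in Drug_Radiation, 3802 of 3806 in Drug, 2425 of 2428 in Radiation and 3183 of 3184 in Control. No doublet caller was run. UMIs were summed over cells and scaled to the nuclear-encoded total, which ran from 8948054 in Control to 141608005 in Drug_Radiation. Ratios are on the log2 scale after adding 1 CPM. The 95% intervals come from exact Poisson limits for CPM and from exact conditional binomial limits for ratios. For the radiation ratio with QTP minus that without, the interval is a normal approximation from the UMI counts. It is rough where UMIs are few. Where a side had 0 UMIs a ratio rests on the added 1 CPM, and none is given for a named gene. GENCODE 29 held 92.0% of the features and gave gene types, positions and sequences. The sequences are from its transcripts, not from the libraries.

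The alternatives were other cell filters, a range of depth, a limit on mitochondrial share, TMM and median-of-ratios scaling, other totals, equal weight per cell, other pseudocounts and minimum levels, and other thinning depths and seeds. Cells were thinned without replacement with seed 0. Likeness used genes with at least 50 CPM in every library: the 5 nearest genes were named for MALAT1 and NEAT1, the 3 nearest for the others, the 3 farthest for MALAT1, and up to 4 of each list by mean CPM. Of the genes nearest to MALAT1, 1 is not reported here, and 1 sequence is not reported here. The members and lists were chosen with earlier results of these data known. Python 3.11.15, numpy 2.4.6, scipy 1.17.1, pandas 2.3.3 and matplotlib 3.10.9 were used, with edgeR 4.0.16 (TMM) and DESeq2 1.42.0 (median of ratios) in R 4.3.3 for scaling alone. On simulated counts with 100 genes changed 4-fold and 100 changed 1.5-fold in each comparison, all of the first and 0 of the second passed 2-fold, as did 0 unchanged genes. There the intervals held the simulated ratio for 96.6% of a random sample of genes in Radiation against Control, drawn from 3596 eligible genes. The shares were 94.4% in Drug_Radiation against Drug (drawn from 4667) and 93.4% in Drug against Control (from 3596). They were 95.8% in Drug_Radiation against Radiation (from 3917) and 94.2% in Drug_Radiation against Control (from 3596). The simulated counts had counting error only, which the intervals assume, so shares near 95% were set in advance.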

Additional observations from a re-analysis of the deposited data

Results flagged for a closer look

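MALAT1 had radiation log2 ratios of opposite sign with and without QTP, -0.80 in Drug_Radiation against Drug and 0.66 in Radiation against Control, a difference of -1.46. Its QTP log2 ratios also had opposite signs, -1.16 in Drug_Radiation against Radiation and 0.30 in Drug against Control, which is the same difference of -1.46. The second of these signs turns with TMM scaling, as given above. KCNQ1OT1 had radiation log2 ratios of -0.26 in Drug_Radiation against Drug and 0.50 in Radiation against Control, a difference of -0.77 with a counting interval of -1.79 to 0.25 that rests on 11 UMIs in Control. In cells of 6500 to 15000 UMIs both ratios were negative, -0.36 and -0.07. The second value rests on few UMIs: KCNQ1OT1 had 1 UMI in the 61 cells of Control with 8000 to 16000 UMIs. It had 4 in the 455 such cells of Radiation. With 1 library in each group these differences were not tested.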

How the results depend on the processing

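LINC00486 stayed past 2-fold under all 12 alternatives in each comparison but Drug_Radiation against Drug, where it stayed within 2-fold under all 12. The members past 2-fold were 4 in Drug against Control and 2 in Drug_Radiation against Control in cells of 6500 to 15000 UMIs, against 1 in each with all cells. Of all genes, 469 were higher and 131 lower by 2-fold in those cells in Drug against Control. In Drug_Radiation against Control 223 were higher and 151 lower. The number of genes tested in those cells is not given here, so the count of members is not read against a share. The count of all genes past 2-fold in Radiation against Control was 147, and it was 93 in cells of 6500 to 15000 UMIs, 278 with equal weight per cell, 365 with no minimum CPM and 84 at a minimum of 50 CPM. In Drug_Radiation against Drug it was 22, and 40 with no minimum and 13 at 50 CPM. In Drug against Control it was 607, and 242 with TMM, 234 with median-of-ratios scaling, 1212 with no minimum and 317 at 50 CPM. In Drug_Radiation against Radiation it was 144, and 228 in cells of 6500 to 15000 UMIs, 401 with no minimum and 89 at 50 CPM. In Drug_Radiation against Control it was 408, and 259 with TMM, 243 with median-of-ratios scaling, 956 with no minimum and 209 at 50 CPM. Fewer or more genes enter at another minimum, and otherwise the cause was not tested.

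Of 300 single log2 ratios under an alternative, 213 moved by no more than 0.5 of the width of their counting interval and 87 moved by more. MALAT1 kept its sign in both radiation comparisons under all 12 alternatives, 0.58 to 0.79 in Radiation against Control and -0.94 to -0.62 in Drug_Radiation against Drug. The ratio of NEAT1 between cells of high and low mitochondrial share was 2.57 in Drug_Radiation, 2.54 in Drug, 0.77 in Radiation and 2.05 in Control in cells of 6500 to 15000 UMIs, and that of MALAT1 was 1.48, 3.01, 0.71 and 0.92. In that range the NEAT1 ratio of Control rests on 16 and 5 UMIs in 17 and 18 cells (0.57 to 3.89). The NEAT1 ratio of Radiation rests on 89 and 59 UMIs (0.28 to 1.28). For LINC01572 and KCNQ1OT1 in Radiation and Control, no ratio in cells of 6500 to 15000 UMIs is given. A side had 0 UMIs there, so the value would rest on the added 1 CPM. Control, with a median of 2318 UMIs per cell, limits what can be read for KCNQ1OT1 (11 UMIs) and LINC01572 (96 UMIs). No paired analysis was possible because each group has 1 library, and for the same reason no library could be left out.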
